A study of Rattus norvegicus with 12 samples.

Results

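The NRF2 pathway antioxidant genes are a named set of 10 genes grouped by function: the transcription factor gene Nfe2l2, its sensor Keap1, and 8 enzyme, transporter and response genes (Nqo1, Gclc, Gclm, Srxn1, Txnrd1, Slc7a11, Gsr and Osgin1). Of these, 9 were among the 17268 genes of the count table and Srxn1 was not analysed here. The set and the further lists used below were chosen with earlier results of these data known. The shares of all genes printed beside their counts are therefore descriptive. RNA was sequenced from the cortex of adult male Sprague Dawley rats in 12 libraries, 3 in each of 4 groups. The Sham group was operated on but received no clot, and the Model group had an embolic stroke from a clot placed in the middle cerebral artery. The rt-PA rats had the same stroke and received rt-PA, the thrombolytic drug that dissolves clots, at 6 h. The rt-PA+Acu rats had the stroke, acupuncture at the points GV26 and PC6 at 2 h, and rt-PA at 6 h. The series holds no stroke group with acupuncture alone, so acupuncture was tested only in rats that all had a clot and rt-PA, by setting rt-PA+Acu against rt-PA, called the acupuncture comparison from here on. The time of tissue sampling for sequencing was not given in the sources used here.

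NRF2, the protein of Nfe2l2, is held in the cytoplasm by KEAP1 and marked for degradation. Oxidants and electrophiles modify KEAP1, NRF2 then accumulates, pairs with small MAF proteins in the nucleus and binds the antioxidant response element of its target genes. The control is therefore largely at the protein level, and the transcript of Nfe2l2 does not measure the activity of the protein. In the brain the pathway is known mainly from astrocytes and other glia, which supply neurons with glutathione precursors.

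Total counts per library ran from 11678450 to 13616935, and 3 counts in a library were worth 0.208 to 0.262 CPM. Levels are in CPM, the usual depth-scaled read count, with library sizes scaled by TMM over all 12 libraries. Summed markers of neurons were 3780 to 6240 CPM in every library, and those of the choroid plexus were 1.68 CPM at most. The neuron sum combined markers that moved in opposite directions. Of the 6, Gad1 was higher in Model than in Sham, and Rbfox3, Slc17a7 and Syt1 were lower (edgeR, adjusted p under 0.05). In the acupuncture comparison the latter 3 were higher by the same rule and 0 were lower. Oligodendrocyte markers varied within groups, from 1670 to 8500 CPM in Model and from 3210 to 21100 CPM in rt-PA+Acu, against 12000 to 17900 CPM in Sham. In whole tissue, fewer cells of a type and less RNA per cell cannot be told apart. The labels number the libraries within a group but do not say how the animals were paired or sampled, so the p-values measure the spread between these libraries.

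The antioxidant response element is the sequence that links NRF2 to its targets, so the promoters of the measured genes were searched for its core, TGACNNNGC, on both strands. The windows ran from 250 bases before to 50 bases after each start in RefSeq (build GRCr8), and 8 of the 9 measured genes had an entry, Txnrd1 with 2 windows. The core was in 3 of these 9 windows, against 12.1% of 33469 windows of the same length over all genes. The AP-1 motif TGACTCA, which can overlap the core, was in 0 of the 9 windows and in 4.63% of all windows. The amino acid response motif TGATGNAA was in 0 of the 9 windows and in 3.98% of all windows. A match is a description of the letters in the window and not evidence of binding. The lack of a match likewise says nothing about bases outside these short windows. The upstream bases of Txnrd1, the gene with the smallest adjusted p after stroke among the 9 measured genes (chr7:22755905-22756154, minus strand), and of Gclm (chr2:213031885-213032134, plus strand) are shown because each holds the core on the opposite strand, in capitals. The other window of Txnrd1 held no match and is not shown. The upstream bases of Gclc (chr8:87510226-87510475, plus strand), which also rose after stroke, are shown for contrast because they hold no match. In Nfe2l2 the match, in capitals, lay 39 to 47 bases after the start (chr3:81028950-81028971, minus strand).
Txnrd1: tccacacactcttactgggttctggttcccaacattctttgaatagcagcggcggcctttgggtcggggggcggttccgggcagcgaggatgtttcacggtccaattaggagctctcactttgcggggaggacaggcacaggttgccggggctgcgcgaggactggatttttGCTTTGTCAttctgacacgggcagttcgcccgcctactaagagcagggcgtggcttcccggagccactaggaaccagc
Gclm: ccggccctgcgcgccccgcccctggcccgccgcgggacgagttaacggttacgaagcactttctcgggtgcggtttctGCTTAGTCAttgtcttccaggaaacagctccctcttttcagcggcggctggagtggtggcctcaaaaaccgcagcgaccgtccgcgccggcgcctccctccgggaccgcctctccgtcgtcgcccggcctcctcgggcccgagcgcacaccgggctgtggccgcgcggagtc
Gclc: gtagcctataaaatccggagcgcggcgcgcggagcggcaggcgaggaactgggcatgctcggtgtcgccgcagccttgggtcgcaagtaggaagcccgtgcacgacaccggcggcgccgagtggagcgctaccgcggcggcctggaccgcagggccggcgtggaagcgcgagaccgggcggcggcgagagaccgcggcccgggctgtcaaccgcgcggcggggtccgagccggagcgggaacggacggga
Nfe2l2: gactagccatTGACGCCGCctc

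After stroke, 5 of the 9 measured genes rose and 1 fell: Txnrd1, Gclc, Slc7a11, Osgin1 and Nfe2l2 were higher in Model than in Sham and Keap1 was lower (adjusted p under 0.05, edgeR's quasi-likelihood test). Over all 12884 genes tested in this comparison 27.3% were higher and 26.6% were lower by the same rule. A DEG also had an absolute log2 fold change over 1, and 4 of the 9 genes were DEGs in Model, all higher, against 9.43% of all genes. The Model and Sham libraries did not overlap for 8 of the 9 genes, against 63.6% of all genes. The median log2 fold change of the 9 genes was 0.44, and that of all genes tested was 0.01. After acupuncture and rt-PA, 6 of the 9 genes were lower than after rt-PA alone, namely Nfe2l2, Gclc, Gclm, Slc7a11, Txnrd1 and Osgin1, and 0 were higher. Over all 12999 genes tested 17.7% were lower and 17% were higher, with medians of -0.65 for the 9 genes and 0 for all genes. The number that passed was 3 without rt-PA+Acu replicate 2 (Nfe2l2, Gclc and Txnrd1) and 4 without rt-PA replicate 1, rt-PA replicate 3 or rt-PA+Acu replicate 1. Txnrd1 and Osgin1 were DEGs with lower levels, against 8.16% of all genes, and the groups did not overlap for 7 of the 9 genes, against 51.1% of all genes. These comparisons share no library, and the sign of the fold change was opposite in them for 9 of 9 genes, against 81.6% of 12753 genes tested in both. A sign opposite in the comparisons was thus common among all genes.

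**Figure D1:**
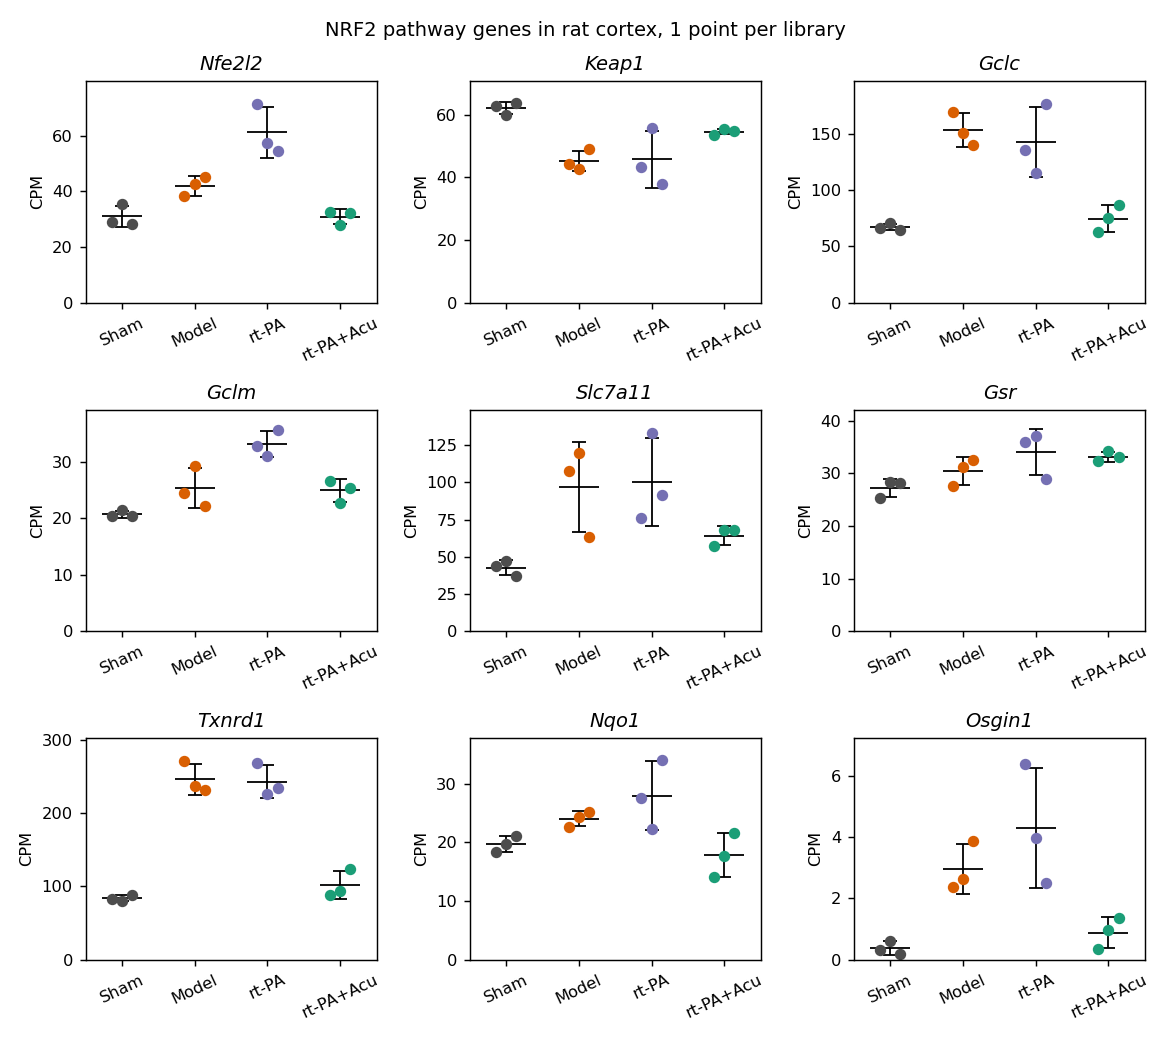
Level of each measured gene in each library, in CPM scaled by TMM over 12 libraries, from a vertical axis that starts at 0. Points are libraries and the bars give the mean and SD of the 3 libraries of a group. Txnrd1 and Gclc stand higher in the Model and rt-PA libraries than in the Sham and rt-PA+Acu libraries, and the group means of Gsr run from 27.3 to 34 CPM.

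Nfe2l2 was highest in the rt-PA libraries. Its level was 29.1, 35.5 and 28.4 CPM in the Sham libraries (31.0 ± 3.91, SD, n = 3) and 38.3, 42.5 and 45.3 CPM in the Model libraries (42.0 ± 3.53). It was 71.5, 57.6 and 54.6 CPM in the rt-PA libraries (61.2 ± 9.05) and 32.7, 27.8 and 32.3 CPM in the rt-PA+Acu libraries (31.0 ± 2.7). Every Model library lay above every Sham library, and every rt-PA library lay above every library of the other groups. The rise after stroke was 0.44 on the log2 scale (SE 0.12, adjusted p = 0.0154), and the adjusted p was 0.0657 without Sham replicate 1 and 0.0674 without Sham replicate 3. The fall with acupuncture was -0.98 (SE 0.14, adjusted p = 0.00337), and it kept an adjusted p under 0.05 in every alternative run. The rt-PA+Acu and Sham libraries, neighbours in the order of levels, overlapped, with a log2 fold change of -0.00 (95% interval -0.30 to 0.30). The rt-PA and Model libraries did not overlap, but the difference of 0.55 (interval 0.24 to 0.86) did not pass the test over all genes (unadjusted p = 0.00372, adjusted p = 0.325, from 0.0613 to 0.679 over the alternatives).

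Keap1 encodes the adaptor that brings NRF2 to a ubiquitin ligase. Its level was 62.8, 59.8 and 63.6 CPM in Sham (62.1 ± 2.02) and 44.2, 42.6 and 48.9 CPM in Model (45.2 ± 3.28). In rt-PA it was 43.4, 55.8 and 38.0 CPM (45.7 ± 9.15), and in rt-PA+Acu it was 53.6, 55.3 and 54.6 CPM (54.5 ± 0.869). All Model libraries lay below all Sham libraries, and rt-PA replicate 2 lay above every rt-PA+Acu library. Keap1 fell by 0.45 on the log2 scale after stroke (SE 0.09, adjusted p = 0.00402). The acupuncture comparison gave 0.26 (interval -0.09 to 0.60, adjusted p = 0.219), and without rt-PA replicate 2 it was 0.42 (adjusted p = 0.0449).

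Markers of other cell types differed between the groups as well. The sum of 6 monocyte and macrophage markers was 53.4 to 70.3 CPM in Sham, 110 to 161 CPM in Model, 168 to 378 CPM in rt-PA and 29.7 to 51.7 CPM in rt-PA+Acu. The marker with the highest mean in every group was Lyz2, at 54.15 CPM in Sham, 97.49 CPM in Model, 167.1 CPM in rt-PA and 24.95 CPM in rt-PA+Acu. Of the 5 markers tested, 3 were higher in Model than in Sham, and 5 were lower in the acupuncture comparison, with a median log2 fold change of -2.72. In rt-PA+Acu against Sham 4 markers were tested, of which 0 were higher and 1 was lower, with a median of 0.36. Ccr2, the monocyte chemokine receptor, ran from 3.91 to 15.3 CPM in rt-PA (mean 7.83). It was at 0 in at least 1 library of Sham and of rt-PA+Acu. Ms4a7 was at 0 in all Sham libraries and at most 0.833 CPM elsewhere. Neutrophil markers summed to 7.26 to 11.8 CPM in Sham, 4.96 to 17 CPM in Model, 14.9 to 81.8 CPM in rt-PA and 3.73 to 5.24 CPM in rt-PA+Acu, so their ranges in Sham and Model overlapped. Of the 4 neutrophil markers tested in Model against Sham, Cxcr2 alone passed and was higher (1.86). In the acupuncture comparison 4 of 5 were lower and 0 were higher, with a median log2 fold change of -5.3. Endothelial markers summed to 107 to 134 CPM in Sham, 184 to 337 CPM in Model, 213 to 332 CPM in rt-PA and 64.3 to 71.6 CPM in rt-PA+Acu. Of the 5 endothelial markers tested, Kdr was higher in Model (16.4 CPM in Sham and 117 CPM in Model), Emcn was lower (-1.25) and the other 3 did not pass, and 4 were lower in the acupuncture comparison. Meningeal markers summed to 31.4 to 74.9 CPM in Sham, 20.2 to 48.1 CPM in Model, 53.2 to 210 CPM in rt-PA and 47.6 to 98.4 CPM in rt-PA+Acu. Of the 5 meningeal markers tested, Slc6a13 alone passed in Model against Sham and was lower (-4.64). The sum hid opposite moves in the acupuncture comparison, where Slc6a13 was higher (4.95), Dcn was lower (-1.94) and the other 3 did not pass. Of 6 astrocyte markers, 1 was higher and 5 were lower in Model, and 5 were higher in the acupuncture comparison, and of 6 microglia markers 1 was higher and 5 were lower in Model, and 2 were higher and 1 was lower in the acupuncture comparison. The part of these cells in the level of any antioxidant gene was not tested.

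**Figure D2:**
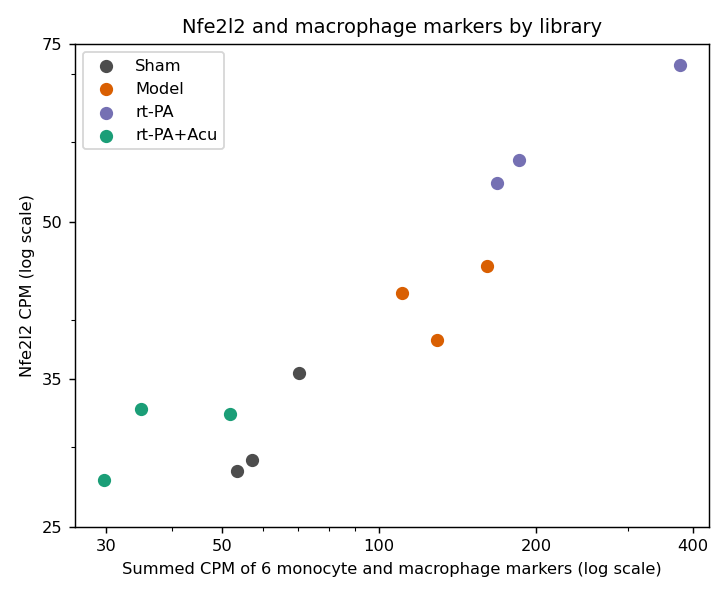
Nfe2l2 level (vertical axis, CPM, log scale) against the summed level of 6 monocyte and macrophage markers (horizontal axis, CPM, log scale), 1 point for each of the 12 libraries and 1 colour for each group. The rt-PA libraries lie highest on both axes, and the rt-PA+Acu libraries lie at the low end of both beside the Sham libraries.

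Of the genes of glutathione synthesis, Gclc and Slc7a11 rose after stroke and Gclm did not pass the test. Slc7a11 is the cystine carrier of the cell membrane, and Gclc and Gclm are the catalytic and modifier subunits of glutamate-cysteine ligase, which makes the glutathione precursor. Gclc was 66.5, 70.7 and 64.7 CPM in Sham (67.3 ± 3.08) and 169.9, 150.7 and 140.0 CPM in Model (153.5 ± 15.2). In rt-PA it was 136.1, 115.2 and 176.8 CPM (142.7 ± 31.3), and in rt-PA+Acu it was 62.6, 75.1 and 86.8 CPM (74.8 ± 12.1). The Model and rt-PA libraries all lay above the Sham and rt-PA+Acu libraries. Gclc rose by 1.20 on the log2 scale after stroke (SE 0.10, adjusted p = 5.3e-05). It was lower in the acupuncture comparison, with a log2 fold change of -0.93 (SE 0.19, adjusted p = 0.00985). Both calls held in every alternative run.

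Slc7a11 was 43.7, 47.3 and 37.0 CPM in Sham (42.7 ± 5.23) and 107.7, 120.0 and 63.0 CPM in Model (96.9 ± 30.0). It was 76.1, 133.1 and 91.6 CPM in rt-PA (100.3 ± 29.5) and 57.0, 68.0 and 67.8 CPM in rt-PA+Acu (64.3 ± 6.32). Model replicate 3 lay within the range of the rt-PA+Acu libraries, while the other two Model libraries lay above it. The rise in Model was 1.19 (SE 0.22, adjusted p = 0.00257), and the acupuncture comparison gave a fall of -0.64 (SE 0.20, adjusted p = 0.0454). The latter lost its call when any library but rt-PA replicate 1 was left out, with adjusted p from 0.063 to 0.132. Slc7a11 was also the 1 gene of 8 tested that was higher in rt-PA+Acu than in Sham (0.59, SE 0.13, adjusted p = 0.0395), where 1.7% of all genes tested were higher, and this call was lost in 7 alternatives (adjusted p 0.0565 to 0.17).

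Gclm passed the test in rt-PA vs Sham and in the acupuncture comparison. It was 20.4, 21.4 and 20.3 CPM in Sham (20.7 ± 0.603), 24.4, 29.2 and 22.2 CPM in Model (25.3 ± 3.57), 32.8, 31.0 and 35.6 CPM in rt-PA (33.1 ± 2.31) and 26.6, 22.7 and 25.4 CPM in rt-PA+Acu (24.9 ± 2.01). The rt-PA libraries lay above those of all other groups. The difference between Model and Sham was 0.29 (SE 0.14, adjusted p = 0.101), which did not pass the test although the groups did not overlap. Gclm was higher in rt-PA than in Sham (0.66, SE 0.11, adjusted p = 0.00134). It was lower in the acupuncture comparison (-0.41, SE 0.13, adjusted p = 0.0400), a call that was lost whichever library was left out (adjusted p 0.0502 to 0.138).

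Of the reductases of thiol recycling, Txnrd1 rose after stroke and was lower with acupuncture, and Gsr passed the test by edgeR in no comparison. Txnrd1, the cytosolic thioredoxin reductase, was 82.8, 80.0 and 88.4 CPM in Sham (83.7 ± 4.24) and 270.9, 236.7 and 232.4 CPM in Model (247 ± 21.1). In rt-PA it was 268.5, 226.0 and 235.1 CPM (243 ± 22.4), and in rt-PA+Acu it was 87.7, 93.7 and 124.0 CPM (102 ± 19.5). The lowest Model or rt-PA library was at 226.0 CPM, and no library of the other groups exceeded 124.0 CPM. It rose by 1.57 on the log2 scale after stroke (SE 0.10, adjusted p = 1.62e-05) and differed by -1.25 in the acupuncture comparison (SE 0.16, adjusted p = 0.00217), with both calls kept in every alternative run.

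Gsr, the reductase that returns oxidised glutathione to its reduced form, was 25.3, 28.4 and 28.1 CPM in Sham (27.3 ± 1.70) and 27.6, 31.2 and 32.6 CPM in Model (30.5 ± 2.61). It was 35.9, 37.1 and 29.0 CPM in rt-PA (34 ± 4.38) and 32.3, 34.2 and 33.1 CPM in rt-PA+Acu (33.2 ± 0.971). Model overlapped both Sham and rt-PA, and the rt-PA+Acu libraries lay inside the rt-PA range. Unadjusted p was under 0.05 for Gsr when Sham was set against rt-PA (0.30 higher in rt-PA, adjusted p = 0.0729, and under 0.05 in 3 alternatives, from 0.0172 to 0.0397) or against rt-PA+Acu (0.28 higher in rt-PA+Acu, adjusted p = 0.161). The difference from Sham in Model was 0.17 (interval -0.10 to 0.43, adjusted p = 0.252) and the acupuncture comparison gave -0.03 (interval -0.33 to 0.27, adjusted p = 0.856).

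Nqo1, the quinone reductase that is widely used as a readout of NRF2, did not pass the test after stroke or in the acupuncture comparison, and was higher in rt-PA than in Sham. It was 18.3, 19.8 and 21.0 CPM in Sham (19.7 ± 1.38), 22.6, 24.4 and 25.1 CPM in Model (24.0 ± 1.29), 27.5, 22.4 and 34 CPM in rt-PA (28 ± 5.84) and 14.1, 17.6 and 21.6 CPM in rt-PA+Acu (17.8 ± 3.75). Neither Model nor rt-PA overlapped Sham, and rt-PA did not overlap rt-PA+Acu. Model exceeded Sham by 0.29 on the log2 scale (SE 0.12, adjusted p = 0.0723). The acupuncture comparison gave -0.65 (SE 0.22, adjusted p = 0.0515), and 6 alternatives put it under 0.05, among them DESeq2 (0.0296) and the fit without rt-PA+Acu replicate 3 (-0.81, adjusted p = 0.0254).

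Osgin1, an oxidative stress response gene, had few reads. Its counts were 4, 8 and 2 in the Sham libraries, which is 0.369 ± 0.222 CPM, and its level was 2.37, 2.62 and 3.88 CPM in Model (2.96 ± 0.811). In rt-PA it was 6.38, 3.95 and 2.51 CPM (4.28 ± 1.96), and in rt-PA+Acu it was 0.337, 0.960 and 1.34 CPM (0.880 ± 0.508, counts of 4, 11 and 18). The Sham and rt-PA+Acu libraries all lay below the Model and rt-PA libraries. Osgin1 rose by 2.95 on the log2 scale after stroke (SE 0.49, adjusted p = 0.00132) and differed by -2.26 in the acupuncture comparison (SE 0.55, adjusted p = 0.0174). The fold changes rest on few reads in Sham and rt-PA+Acu, and the second call was lost without rt-PA replicate 1 (adjusted p = 0.0633) and without rt-PA+Acu replicate 2 (adjusted p = 0.0589).

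The effect of rt-PA alone was addressed by rt-PA vs Model, in which 0 of the 9 genes passed the test by edgeR, as did 0% of the 12941 genes tested, and 0 of the 9 passed by DESeq2. Unadjusted p was under 0.05 for Nfe2l2 and for Gclm (0.39, unadjusted p = 0.0234, adjusted p = 0.422), against 9.92% of all genes, and these were also the 2 genes whose groups did not overlap, against 15.9% of all genes. The other 7 genes had log2 fold changes from -0.10 for Gclc to 0.54 for Osgin1. The interval was narrow for Txnrd1 (-0.27 to 0.23) and widest for Osgin1 (-0.38 to 1.46). A 1.5-fold rise lay within the intervals of Osgin1, Slc7a11 (-0.59 to 0.69) and Nqo1 (-0.17 to 0.61). It also lay within those of Nfe2l2 (0.24 to 0.86) and Gclm (0.07 to 0.71). Against Sham, 7 of the 9 genes were higher in rt-PA and Keap1 was lower, where 27.4% of all genes were higher and 27.3% were lower. The rt-PA and Sham libraries did not overlap for 9 of 9 genes, against 64.1% of all genes, and 4 of the 9 were DEGs, against 11% of all genes for DEGs that were higher. Of these, Keap1 (-0.46, adjusted p = 0.0241) and Nqo1 (0.49, adjusted p = 0.0374) lost their calls in 6 and 5 alternatives.

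The rt-PA+Acu libraries were also set against Sham and Model. Of the 8 genes tested against Sham, Slc7a11 alone passed (Osgin1 had too few counts to be tested), where 5.1% of all genes passed in either direction. No gene of the set was a DEG by edgeR or by DESeq2, against 2.06% of all genes by edgeR. Unadjusted p was under 0.05 for Slc7a11 and Gsr, against 23.2% of all genes, and the groups did not overlap for 4 of the 8, against 30.8% of all genes. The intervals of Gclc (-0.15 to 0.46) and Txnrd1 (-0.05 to 0.61) included 0. Against Model, Gclc (-1.04), Txnrd1 (-1.28), Osgin1 (-1.72) and Nfe2l2 (-0.44) were lower, where 16.9% of all genes were lower. The first 3 were DEGs, against 6.62% of all genes for DEGs that were lower, and the groups did not overlap for 6 of the 9 genes, against 50% of all genes. The calls for Nfe2l2 and Osgin1 were lost in 5 alternatives each, and the number that passed was 2 without Model replicate 2, rt-PA+Acu replicate 1 or rt-PA+Acu replicate 2. Slc7a11 did not pass against Model (-0.59, adjusted p = 0.0778), and without Model replicate 3 it did (-0.83, adjusted p = 0.00672).

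**Figure D3:**
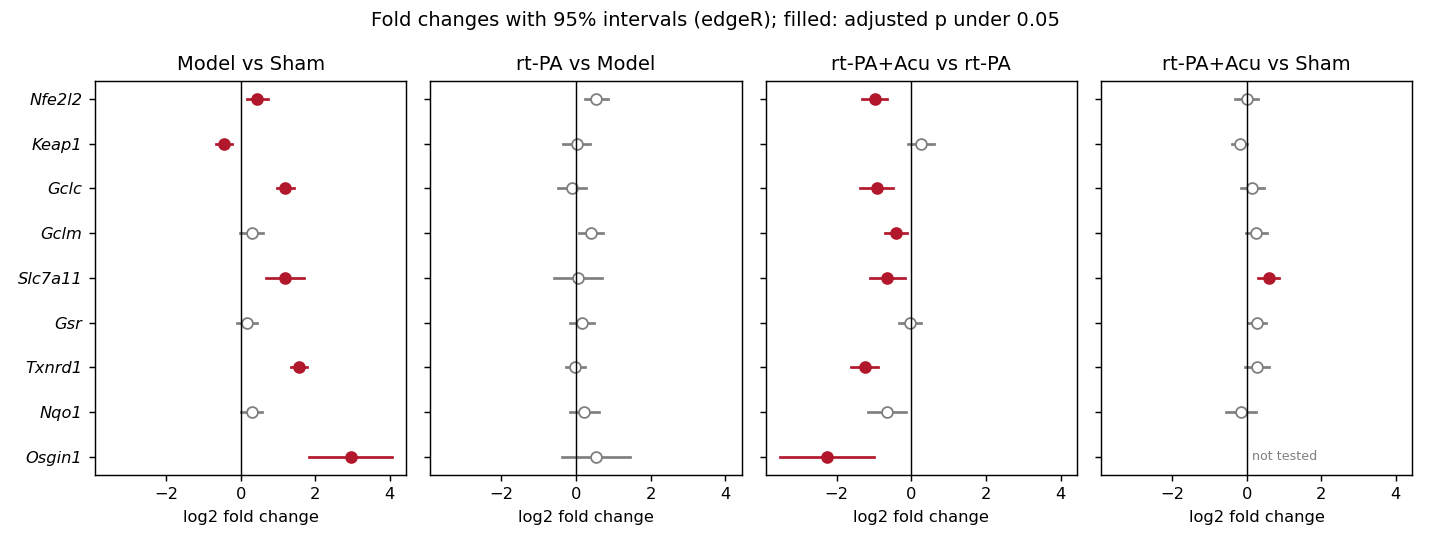
Log2 fold changes of the 9 measured genes (horizontal axis, one scale in all panels) in 4 comparisons, with 95% intervals from the edgeR fits. Filled points have an adjusted p under 0.05, and no point is filled in rt-PA vs Model. Osgin1 was not tested in rt-PA+Acu vs Sham.

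The wider pathway was read from 4 further lists, whose counts stand against 27.3% of all genes higher and 26.6% lower after stroke, and 17% higher and 17.7% lower in the acupuncture comparison. Of 13 regulators and partners of NRF2 tested, 6 rose and 0 fell after stroke, and 0 were higher and 5 lower in the acupuncture comparison. Maff, a small MAF partner, rose by 3.44 on the log2 scale after stroke (SE 0.27, adjusted p = 4.04e-05) and was lower with acupuncture (-2.86, adjusted p = 0.00623, and -3.67 without rt-PA+Acu replicate 3). Bach1, the repressor that competes with NRF2 at its sites, rose by 1.37 and was lower with acupuncture (-1.41). Sesn2 rose by 1.88 and was lower with acupuncture (-1.30), and this second call was lost in 5 alternatives and the value was -1.91 without rt-PA+Acu replicate 3. Dpp3, which binds KEAP1, rose by 0.46, and Mafg was lower with acupuncture (-0.38), a call lost in 5 alternatives.

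Of 21 genes of NADPH supply and detoxification tested, 10 rose and 7 fell after stroke, and 2 were higher and 8 lower in the acupuncture comparison. Over all genes 27.3% were higher and 26.6% lower after stroke, and 17% were higher and 17.7% lower in the acupuncture comparison. Hmox1, the heme-degrading enzyme that BACH1 represses, was 7.30 ± 0.525 CPM in Sham, 309.5 ± 49.0 CPM in Model, 443.7 ± 184 CPM in rt-PA and 12.3 ± 11.1 CPM in rt-PA+Acu. The rise of 5.41 on the log2 scale after stroke (SE 0.15, adjusted p = 3.29e-06) had the smallest adjusted p of all genes in that comparison. The acupuncture comparison gave -5.16 (SE 0.68, adjusted p = 0.00245), and -6.24 without rt-PA+Acu replicate 3. Akr1b8, an aldo-keto reductase, rose by 3.56 (SE 0.75), or by 2.42 without Model replicate 3, and was lower with acupuncture (-5.18, SE 0.37). It was 0.486 ± 0.148 CPM in Sham, 5.83 ± 5.55 CPM in Model (2.29 to 12.2), 10.2 ± 1.8 CPM in rt-PA and 0.278 ± 0.137 CPM in rt-PA+Acu, with 2 to 8 counts in the Sham and rt-PA+Acu libraries. Aox1, an aldehyde oxidase, moved the other way, by -3.59 after stroke (-4.42 without Model replicate 3) and 2.04 with acupuncture. The carbonyl reductases Cbr1 (2.56 after stroke) and Cbr3 (-1.59 with acupuncture) also passed, the latter losing its call in 2 alternatives.

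Of 23 further genes of the glutathione and thioredoxin systems, 6 rose and 5 fell after stroke, and 2 were higher and 5 lower in the acupuncture comparison. Over all genes the shares were 27.3% and 26.6%, and 17% and 17.7%, so the counts after stroke lay near those of all genes. The glutathione-degrading enzyme Chac1 (1.34) and the glutamate and cysteine transporter Slc1a1 (1.03) rose after stroke, and Ggt1 (-2.18) and the peroxiredoxin Prdx6 (-1.28) fell. With acupuncture Oplah was higher (0.72), and Slc1a1 (-0.63), Prdx5 (-0.59) and Txn1 (-0.54) were lower, Txn1 losing its call in 2 alternatives. Of 8 superoxide and peroxide genes tested, 3 rose and 2 fell after stroke, and 1 was higher and 4 lower with acupuncture, against the same shares over all genes. Those higher in Model included Ncf4 (3.26) and Cyba (1.33), subunits of the phagocyte NADPH oxidase, which make superoxide rather than remove it. Ncf4 (-1.72, and -2.45 without rt-PA+Acu replicate 3) and Cyba (-1.65) were lower with acupuncture. Ncf1, another subunit, did not pass after stroke (0.15, adjusted p = 0.585) or with acupuncture (-1.17, adjusted p = 0.0619). Macrophage markers also differed in these comparisons, as given above, and their part in the levels of these genes was not tested. Of the superoxide dismutases, Sod1 fell after stroke (-0.68) and was higher with acupuncture (0.51, adjusted p = 0.0211), and Sod2 was lower with acupuncture (-0.51) and did not pass after stroke (0.33, adjusted p = 0.0998). The calls for Ncf4 and Sod2 with acupuncture were lost in 2 and 3 alternatives.

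**Figure D4:**
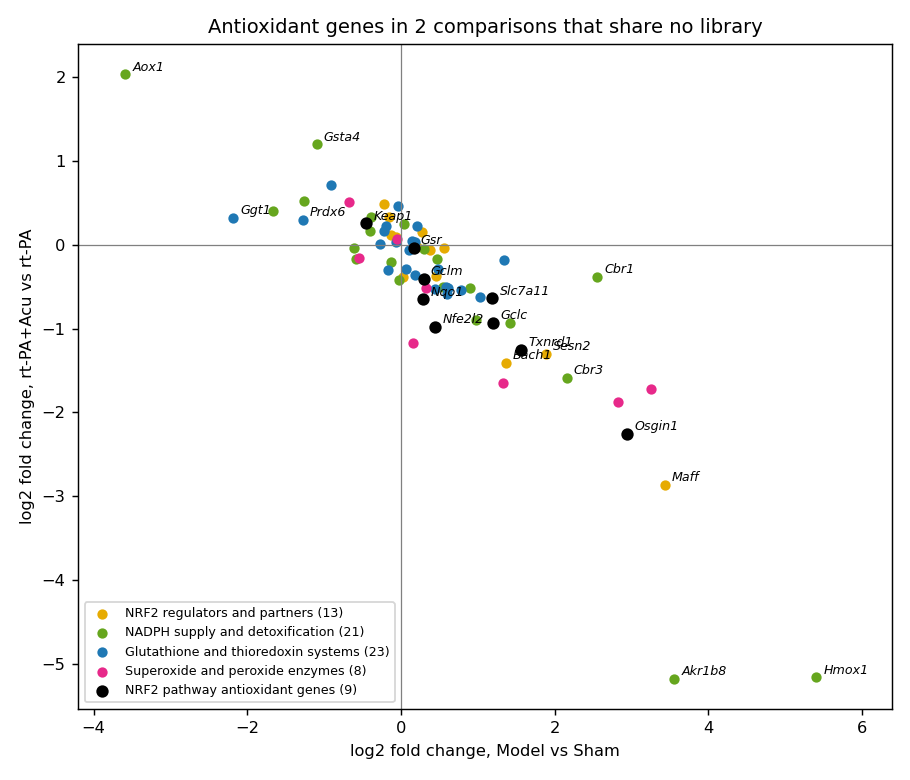
Log2 fold change in the acupuncture comparison (vertical axis, rt-PA+Acu against rt-PA) against that in Model vs Sham (horizontal axis) for the measured NRF2 pathway antioxidant genes (black) and the genes of 4 further lists (colours, number of genes in brackets). Hmox1 and Akr1b8 lie at the far lower right, Aox1 at the upper left, and Gsr and Keap1 near the centre.

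The genes whose pattern over the 12 libraries was most like that of 3 of the antioxidant genes were named by Pearson correlation of log2 CPM among 13295 genes. These values describe libraries that share groups and carry no test. For Nfe2l2 the closest included Sh3tc1 (r = 0.982), S100a11 (0.977), Myo1g (0.976) and Slfn4 (0.968). For Txnrd1 they were Lrrc59 (0.994), Hnrnpab (0.992), Ddx21 (0.992), Ncl (0.991) and P4hb (0.991). For Keap1 they were Slc2a5 (0.939), Pradc1 (0.937), Zfp775 (0.936), Sh3glb2 (0.925) and Shisa7 (0.924).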

How the data were processed

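Paired-end RNA-seq libraries of rat cortex were deposited as whole-number counts per gene. Per the labels and the study's methods, the authors aligned reads with STAR 2.7.10a to mRatBN7.2 and counted them; the processing notes name both Salmon 1.9.0 and featureCounts 2.0.1, and which made the counts was not settled here. The kit keeps strand and carries molecular identifiers, whose use in counting is not given in the sources used here. Each comparison was fitted on its 6 libraries with edgeR 4.0.16 (R 4.3.3): filterByExpr, TMM scaling, quasi-likelihood test, Benjamini-Hochberg adjustment over all genes tested. A gene passed at an adjusted p under 0.05. A DEG also had an absolute log2 fold change over 1. Of 17268 genes, 15895 had a count. No libraries held identical values. Fits were tested on simulated data: 65% of genes changed 2-fold and 89.8% changed 4-fold were recovered in Model vs Sham. The shares were 56% and 89.9% in rt-PA vs Model, and 67.7% and 92.9% in the acupuncture comparison. Unchanged genes called were 11, 10 and 13 in these comparisons. The genes and lists were chosen with earlier results of these data known. All measured genes of the set are named; of each further list, the 4 genes with the largest change among those that passed with a mean of at least 1 CPM in the comparison, and Hmox1; and the 5 genes most correlated with Nfe2l2, Keap1 and Txnrd1. Alternatives were DESeq2 1.42.0, RLE, library size alone, no filter, at least 10 counts in every library, one fit over 12 libraries, a replicate block, no fold threshold, and leaving out each library. Promoters came from RefSeq (GRCr8), whose coordinates differ from those of the authors' build. Genes that overlap or share reads with close copies were not separated further. Some genes that these rules select are not reported here.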

Additional observations from a re-analysis of the deposited data

How the results depend on the processing

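Of 685 pairs of a measured antioxidant gene, comparison and alternative, 606 kept the sign of the fold change and the side of the adjusted p, 46 lost the call, 16 gained one and 17 changed sign. In the acupuncture comparison the DEGs among the 9 genes were Txnrd1 and Osgin1, a count of 2. It was 4 with library size alone, 1 with at least 10 counts in every library (which leaves Osgin1 out), 6 with no fold threshold and 1 with the replicate block, and from 1 (without rt-PA replicate 1 or rt-PA+Acu replicate 2) to 4 (without rt-PA replicate 2 or rt-PA+Acu replicate 3) when a library was left out. With no fold threshold the count was 8 in place of 4 in rt-PA vs Sham, 1 in place of 0 in rt-PA+Acu vs Sham, and 4 in place of 3 in rt-PA+Acu vs Model. With a library left out, the last ran from 1 (without Model replicate 1 or rt-PA+Acu replicate 1) to 3. The changes of sign were all in genes without a call: in rt-PA vs Model, Keap1 (-0.15 to 0.12, with 0 and -0.02 among them), Gclc (-0.3 to 0.03), Txnrd1 (-0.1 to 0.05, and 0.03 with library size alone) and Slc7a11 (-0.21 to 0.23, with -0.19 without Model replicate 3); in the acupuncture comparison, Gsr (-0.14 to 0.03, with 0.01 without rt-PA replicate 1); in rt-PA+Acu vs Sham, Nfe2l2 (-0.06 to 0.1, with 0.07 without rt-PA+Acu replicate 2, 0.03 with library size alone and 0 with the replicate block); and in rt-PA+Acu vs Model, Gclm (-0.11 to 0.08, with 0.04 without rt-PA+Acu replicate 2). The cause of these shifts was not tested. A correlation of deviations over 0.1 was found in 3 of 18 same-numbered pairs of libraries (range -0.255 to 0.144). Pairs with different numbers reached 0.235 (Model replicate 1 with rt-PA+Acu replicate 3), above every same-numbered pair. Such values from 3 libraries a group cannot settle whether the animals were paired. With the replicate block Gclm (adjusted p = 0.0643) and Osgin1 (0.0545) lost their calls in the acupuncture comparison, and Nqo1 gained one (0.0423). Library size alone moved the median of all genes by 0.15 in rt-PA vs Sham. Over all genes DESeq2 called 72 DEGs in rt-PA vs Model, where edgeR called 0. With 3 libraries a group, and counts of 2 to 8 for Osgin1 in Sham, small differences in low genes were not detectable.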
